A study of Ovis aries with 12 samples.

Results

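NPPA and NPPB, the genes of atrial natriuretic peptide and B-type natriuretic peptide, were followed in right ventricular free wall of sheep. They are the 2 rows of the deposited count table whose name is NPPA (ENSOARG00000018229) or NPPB (ENSOARG00000018211), out of 27054 rows, and both passed the filter on low counts that left 13065 genes for testing. The 12 libraries of stranded mRNA came in 3 groups of 4. The fetal group is lambs before birth, the control group is lambs of 4 to 6 weeks, and the shunt group is lambs of the same age range in which a graft had been placed between aorta and pulmonary artery by surgery before birth. The graft carries blood from left to right and loads the right ventricle with pressure. The labels give no breed, sex or gestational age, and nothing in them ties a library to its own animal, so every p-value reflects spread among libraries that could be technical.

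Both peptides are hormones of heart muscle. They are made as precursors, cleaved by proteases, and act through a receptor that makes cyclic GMP, by which they relax vessels and drive salt and water into the urine. In mammals the ventricle makes both before birth, expression then withdraws largely to the atria, and ventricular muscle makes them again when its wall is stretched or loaded, which is why the B-type peptide is measured in blood as a sign of heart failure. NPPA and NPPB lie side by side in mammalian genomes, and in the sheep assembly ARS-UI_Ramb_v3.0 there were 0 genes listed between them.

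Library totals ran from 19111348 to 44946875 counts. The mitochondrial genome's 13 protein genes took 26.7% to 41.2% of counts in fetal, 43.5% to 49.99% in control and 45.6% to 72.6% in shunt libraries. Levels are given in CPM, read counts divided by the library total after scaling by the trimmed mean of M values (TMM). MYL2, the regulatory light chain of ventricular muscle, lay between 8599 and 16353 CPM in every library. Of 13 markers of atrial muscle looked for, 0 had a name in the table, so the presence of atrial tissue was not tested. In bulk tissue, fewer cells that make a transcript and less of it per cell cannot be told apart.

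In the fetal group NPPA was at 99.3, 373, 91.7 and 60.6 CPM in libraries 1 to 4. In the control group it was at 49.7, 0.689, 5.63 and 13.7 CPM, the second of these resting on 15 counts. In the shunt group it was at 69.2, 142, 3589 and 9.85 CPM. All 4 control libraries thus lay below all 4 fetal ones, while the shunt libraries spread from the range of the controls to far above the fetal group, and shunt 3 alone held 94.2% of the group's summed CPM. The mean was 156 ± 146 CPM for the fetal group, 17.4 ± 22.2 CPM for the controls and 952 ± 1758 CPM for the shunt group (SD over 4 libraries).

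NPPB had its lowest levels in controls too. It was at 142, 402, 239.5 and 108 CPM in fetal libraries 1 to 4. In controls it was at 9.38, 0, 0.386 and 4.81 CPM. The 0 in control 2 stands for no read among 20041416 counts, and a count of 0 allows up to 0.138 CPM there, while control 3 had 14 counts. The shunt libraries were at 68.4, 205, 2520.0 and 6.18 CPM. Controls and fetal libraries did not overlap, and among shunt libraries only shunt 4 reached down to the control range, between control 4 and control 1. Its mean was 223 ± 132 CPM before birth, 3.65 ± 4.40 CPM in controls and 699.9 ± 1216 CPM with a shunt (SD over 4 libraries). Without shunt 3, the mean of the 3 other shunt libraries was 73.6 ± 66.0 CPM for NPPA and 93.2 ± 102 CPM for NPPB.

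**Figure D1:**
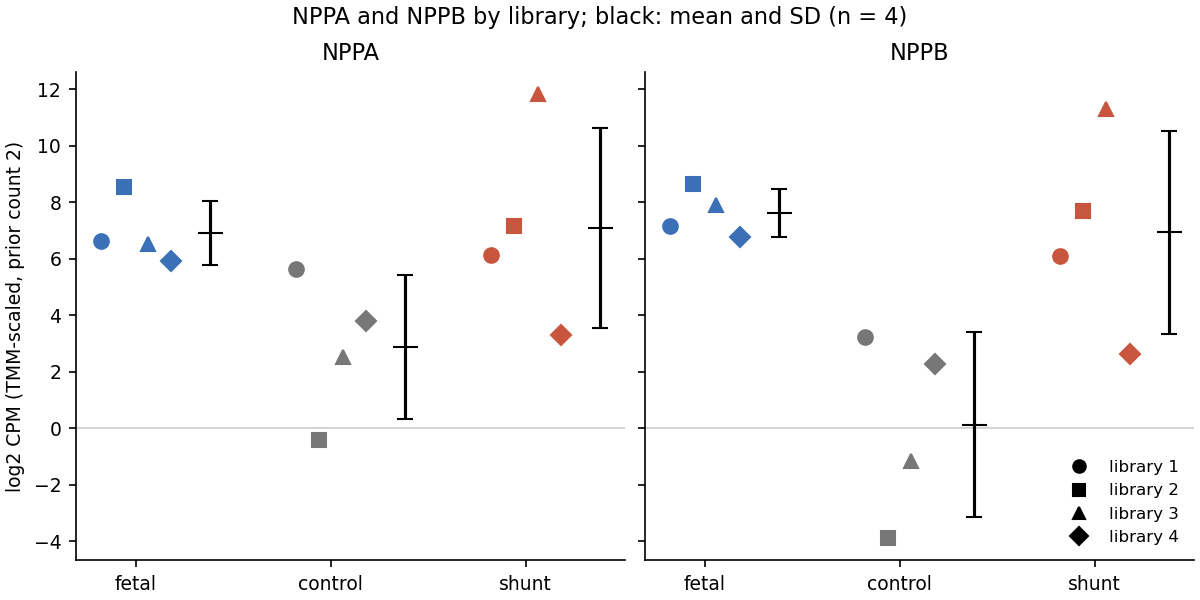
NPPA (left) and NPPB (right) in each library, as log2 CPM with a prior count of 2, by group, with the black bar giving the group mean and SD (n = 4). The 4 control libraries lie below the 4 fetal ones for both genes, shunt 3 is the highest library in both panels and shunt 4 lies among the controls.

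The comparison of control with fetal ventricle asks what changes over birth and the first weeks. On the model's scale, which compares mean levels, NPPB had a log2 change of -5.90 (SE 1.85, unadjusted p = 0.00917), the 12th largest in size of 13065 genes, and NPPA of -3.15 (SE 1.68, unadjusted p = 0.0888). Adjusted over all genes by edgeR's quasi-likelihood test, the p-values were 0.104 and 0.355, so neither gene was called. In this comparison 5.17% of all genes were called, 2.66% as higher and 2.5% as lower in controls. The libraries of both groups did not overlap for NPPA and NPPB, with controls lower, as was so for 10.2% of all genes. An exact two-sided permutation test on mean log2 CPM gave p = 0.0286 for either gene, the smallest that 4 against 4 libraries allow. Adjusted by Benjamini-Hochberg over the 6 such tests made, this is an exact p of 0.0857. NPPB was called when only the 8 libraries of both groups were fitted (edgeR adjusted p = 0.0324), without robust estimation (edgeR adjusted p = 0.0462) and by the Wald test of DESeq2 (adjusted p = 0.00414). NPPA was not called in either of these edgeR fits, and DESeq2 gave it no p-value. The fit of both groups alone called 1913 genes in all, the fit without robust estimation 682 and DESeq2 1248, against 675 in the main fit.

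Shunt against control compares ventricles of lambs of the same age range with and without the graft placed before birth. NPPB stood at a log2 change of 7.55 (SE 1.99, unadjusted p = 0.00325) and NPPA at 5.76 (SE 1.90, unadjusted p = 0.0119), the 4th and the 7th largest of 13065 genes in size. By unadjusted p they ranked only 756th and 1737th, since their spread between libraries was wide. With edgeR adjusted p = 0.056 and 0.0895 neither was called, against 4% of all genes called, 2.3% as higher and 1.69% as lower. For both genes the groups overlapped. Of the 16 pairs of a shunt and a control library, the shunt library was higher in 15 for NPPB and in 14 for NPPA, and the exact permutation tests gave p = 0.0571 and 0.0857 (0.114 and 0.129 adjusted over the 6 tests). The pairs for NPPA depended on scaling, since on library totals shunt 1 (38.9 CPM) lay below control 1 (55.3 CPM). With library totals the exact permutation p was 0.0571 for NPPB and 0.171 for NPPA. These values moved with single libraries of either group. Without shunt 4 both genes were called, at 7.96 for NPPB (edgeR adjusted p = 0.0217) and 6.17 for NPPA (adjusted p = 0.0447). That fit called 2169 genes in all, against 522 with all libraries. Without shunt 3 the log2 changes were 4.63 for NPPB and 2.06 for NPPA (edgeR adjusted p = 0.0691 and 0.299). Without control 1 they were 8.61 and 7.12, and neither gene was called (edgeR adjusted p = 0.112 and 0.125).

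Shunt against fetal sets the loaded ventricle of the young lamb beside the ventricle before birth. The log2 change was 2.61 for NPPA (SE 1.64, edgeR adjusted p = 0.295) and 1.65 for NPPB (SE 1.53, adjusted p = 0.483), in a comparison in which 15.7% of all genes were called, 9.16% as higher and 6.51% as lower. Without shunt 3 both changed sign, to -1.09 and -1.26 (edgeR adjusted p = 0.582 and 0.543). On mean log2 CPM, where a single high library weighs less, the differences were 0.19 for NPPA and -0.68 for NPPB (exact permutation p = 0.857 and 0.686). In order of mean log2 CPM, NPPA ran from shunt (7.10 ± 3.54) and fetal (6.91 ± 1.14) to control (2.88 ± 2.54), and NPPB from fetal (7.61 ± 0.84) and shunt (6.93 ± 3.59) to control (0.13 ± 3.27; SD, n = 4 each). Shunt and fetal groups, neighbours in both orders, did not differ beyond their spread.

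**Figure D2:**
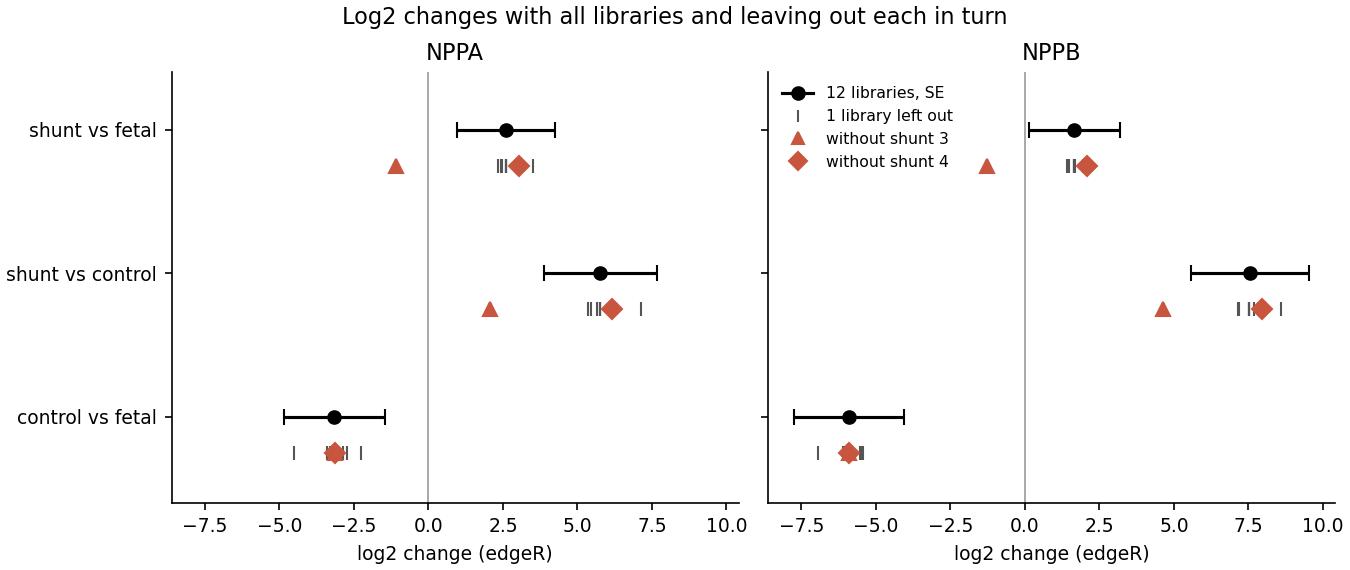
Log2 change of NPPA and NPPB in each comparison from the edgeR model with all 12 libraries (black, with standard error) and, below each, with 1 library left out in turn. Leaving out shunt 3 (triangle) lowers shunt against control to 2.06 for NPPA and 4.63 for NPPB and turns shunt against fetal below 0.

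In the balance between both genes no control library overlapped either of the other groups, whereas in their levels controls and shunt libraries did overlap. It was measured as the share of NPPB in the sum of NPPA and NPPB counts of a library, which needs no scaling and in which the mitochondrial counts cancel. It is a ratio of reads and not of molecules, as transcript length was not used. In the fetal libraries the share was 58.8%, 51.9%, 72.3% and 64.0%. In the controls it was 15.9%, 0%, 6.42% and 26.0%. The sums behind these control values were 2955, 15, 218 and 546 counts, and the exact 95% binomial interval of control 2 reaches up to 21.8%. In the shunt libraries it was 49.7%, 59.1%, 41.3% and 38.6%, on sums of 2016, 3936, 201051 and 428 counts. NPPA reads outnumbered NPPB reads in every control library, the reverse held in every fetal one, and the shunt libraries lay around an even split.

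The NPPB share averaged 61.8% ± 8.61 before birth, 12.1% ± 11.3 in controls and 47.2% ± 9.28 with a shunt (SD over 4 libraries). The difference of control minus fetal was -49.7 percentage points and that of shunt minus control was 35.1 percentage points, with no overlap in either comparison. The two-sided exact permutation p was 0.0286 for each, the smallest possible, and 0.0429 after Benjamini-Hochberg adjustment over the 3 comparisons. Shunt minus fetal was -14.6 percentage points with overlapping libraries (exact p = 0.0857). The log2 ratio of NPPA to NPPB counts, which control 2 cannot give, differed by 3.30 for control against fetal and by -2.43 for shunt against control (exact p = 0.0286 for each, 0.0429 adjusted over 3). Leaving out each library in turn, control minus fetal lay between -54.3 and -45.7 percentage points and shunt minus control between 31.1 and 39.7. The exact p stayed at 0.0286 except without shunt 2, where shunt against control gave 0.0571. Intervals and counts cover counting error only.

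**Figure D3:**
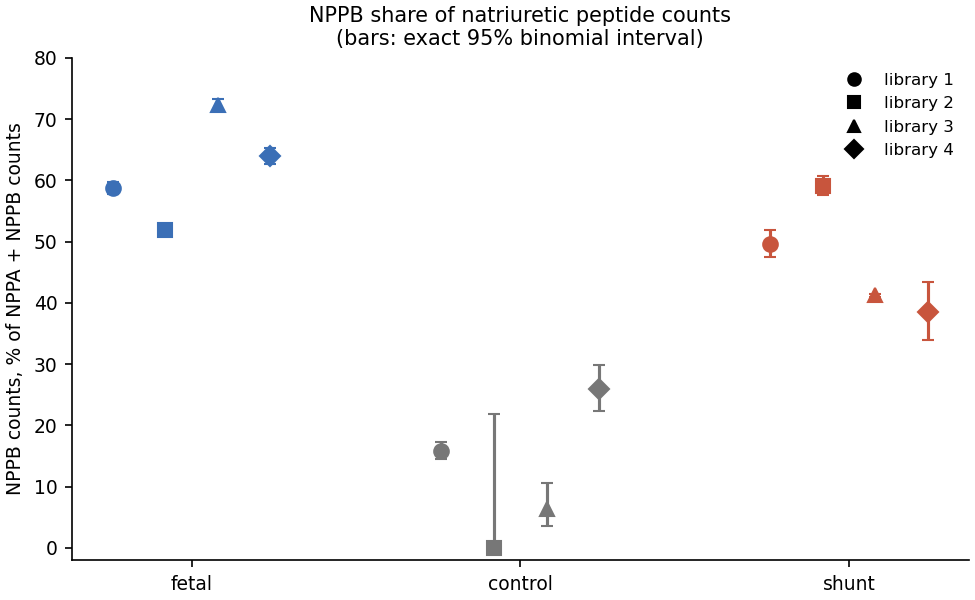
NPPB counts as a percentage of NPPA plus NPPB counts in each library, by group, with exact 95% binomial intervals for counting error. The controls reach at most 26.0%, the lowest fetal library is at 51.9% and the lowest shunt library at 38.6%.

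The summed level of both transcripts stood at 59.1 CPM in control 1 with a share of 15.9%, at 16.03 CPM in shunt 4 with 38.6%, at 347 CPM in shunt 2 with 59.1% and at 6109 CPM in shunt 3 with 41.3%. A relation of the share with the summed level was not tested. In shunt 3 both genes together took 0.470% of all counts and 1.04% of those outside the mitochondrial genes. In the fetal libraries this fraction of all counts was 0.0231% to 0.125%.

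Variation within groups was itself a feature of both genes. In the shunt group the SD of log2 CPM among 4 libraries was 3.59 for NPPB and 3.54 for NPPA, ranking 14th and 15th of 13065 genes, against a median of 0.53 over all genes. In controls it was 3.27 and 2.54, ranking 14th and 30th, against a median of 0.29. The control spread rests in part on counts near the floor, with 0 NPPB and 15 NPPA counts in control 2. There the prior count sets the log2 CPM of NPPB, at -3.88 with 2, -5.88 with 0.5 and -2.56 with 5. In fetal libraries it was 0.84 and 1.14, ranking 798th and 315th, against a median of 0.28. From lowest to highest library, NPPA spanned a factor of 6.16 before birth, 72.2 in controls and 364 with a shunt, and NPPB a factor of 3.74 before birth and 408 with a shunt.

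**Figure D4:**
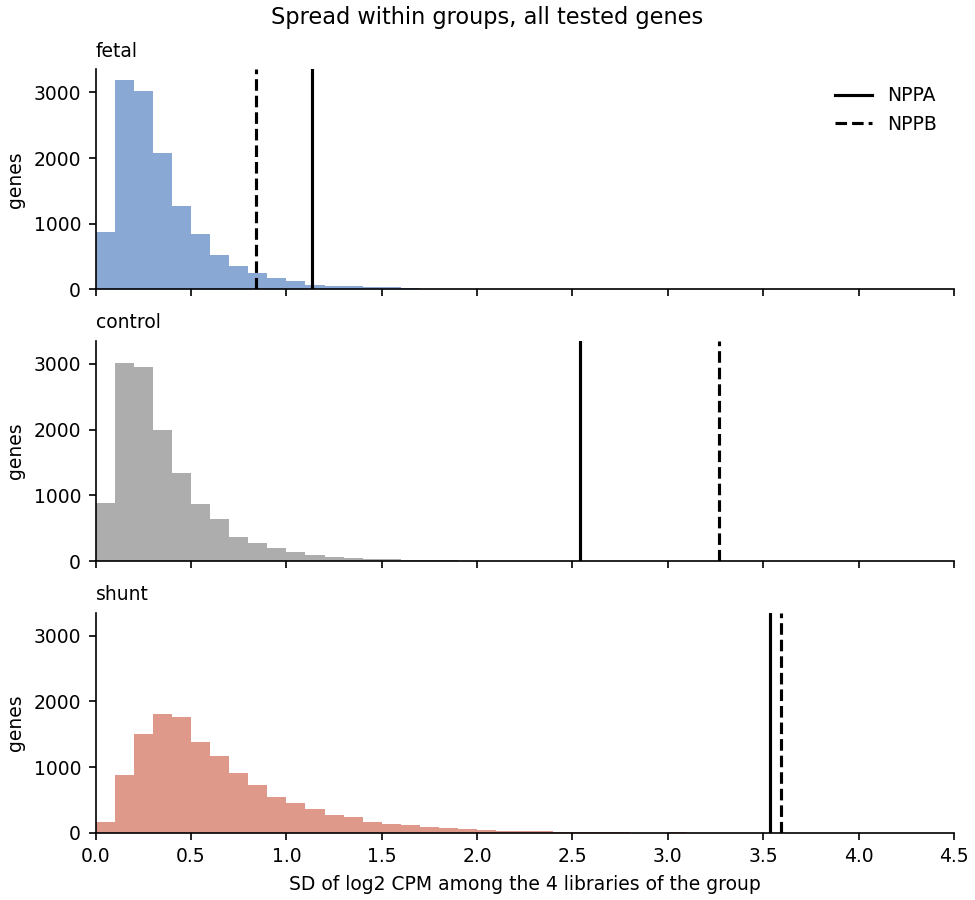
Number of genes by the SD of log2 CPM among the 4 libraries of the fetal, control and shunt group, with NPPA (solid line) and NPPB (dashed line) marked. Both lie in the upper tail in each group, at 1.14 and 0.84 in fetal, 2.54 and 3.27 in control, and 3.54 and 3.59 in shunt libraries.

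NPPA and NPPB varied together from library to library. Over the 12 libraries the Pearson correlation of their log2 CPM was 0.956 and Spearman's rho 0.965 (permutation p = 1e-05 for each, the smallest that 100000 resamples can give, and 3e-05 adjusted over the 3 relations tested). Without control 2 and shunt 3, the libraries farthest from the median of NPPA, r was 0.935 (permutation p = 1e-05). As the groups differ in mean, the deviations from group means were correlated too, which gave r = 0.968 (exact permutation within groups, p = 0.000145, 0.000434 adjusted over 3). Leaving out each library in turn, r lay between 0.929 and 0.964 over all libraries and between 0.953 and 0.980 for the deviations. Both genes are read from the same library and share its depth and scaling.

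Neither gene showed a relation with the mitochondrially encoded share. For NPPA the Pearson correlation over 12 libraries was 0.0285 and rho -0.119 (permutation p = 0.928 and 0.718). For NPPB it was -0.00884 and rho -0.203 (permutation p = 0.979 and 0.528). Without shunt 1 and shunt 2, which stand apart at 72.6% and 71.4% and are farthest from the median share, r was -0.172 and -0.337 (permutation p = 0.636 and 0.341). The deviations from group means gave -0.0355 and 0.0647 (exact permutation p = 0.954 and 0.903). This value rested on shunt 4 in part, since without it NPPA gave -0.705 (exact p = 0.0318) and NPPB -0.569 (exact p = 0.0527). Shunt 3, with the highest natriuretic peptide level, had a share of 54.6%, and shunt 4, with the lowest of its group, had 45.6%. With 12 libraries, relations of moderate strength could have gone unseen.

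**Figure D5:**
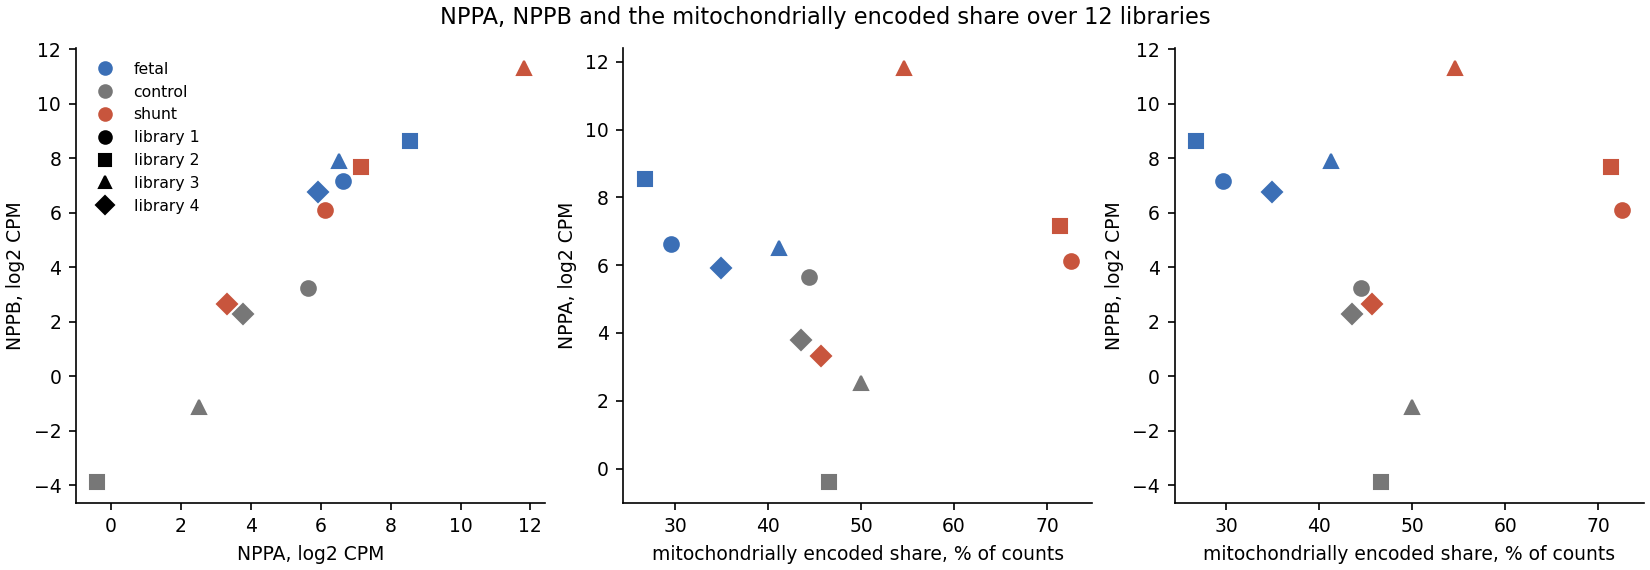
NPPB against NPPA (left) and each gene against the percentage of counts on mitochondrially encoded genes (middle and right), all genes as log2 CPM, 1 point per library, coloured by group. The left panel runs along a line (r = 0.956), the other panels show no trend (r = 0.0285 and -0.00884) and shunt 3 is the highest point of each panel.

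Among genes of ligands, processing enzymes and receptors of this system, 14 were looked for and 4 had a name in the table. Beside NPPA and NPPB these were NPPC, the C-type peptide gene of vessel walls, and FURIN, a protease that cleaves the precursor of the B-type peptide. NPPC had 3 counts in control 1 and 0 in each of the other 11 libraries. FURIN was at 11.6, 12.4, 12.3 and 12.6 CPM in fetal, 39.0, 23.4, 16.1 and 31.5 CPM in control and 13.5, 13.9, 14.4 and 15.8 CPM in shunt libraries. After TMM scaling every control library lay above every library of the other groups. Such separation with controls on the higher side held for 9.18% of all genes against fetal and for 6.07% against shunt libraries. On library totals it was not complete for FURIN, as control 3 then lay below fetal 1 (TMM factors 0.955 and 1.55). NPPB was lower in every control than in every fetal library, but control 1 (9.38 CPM) lay above shunt 4 (6.18 CPM). FURIN rose from fetal to control (log2 1.17, SE 0.226, edgeR adjusted p = 0.00951) and was lower in shunt than in control (-0.93, SE 0.226, adjusted p = 0.0428). With library totals as the only scaling these were 0.78 and -1.55, and the first was then not called (edgeR adjusted p = 0.167). The second was lost when single libraries were left out, with edgeR adjusted p up to 0.142. Of 17 genes of cyclic GMP signalling 1 was tested, RGS4, a brake on G protein signals, at 0.176 to 1.82 CPM.

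Of 31 transcription factors known to act on natriuretic peptide genes in mammals, 9 were tested. In shunt against control, where 4% of all genes were called, 1 rose and 1 fell. The median log2 change of the 9 was -0.42, against 0.0094 over all genes. ATF4, of the integrated stress response, rose by 0.86 (SE 0.213, edgeR adjusted p = 0.0455) and YAP1, the effector of the Hippo pathway, fell by 0.98 (SE 0.186, adjusted p = 0.0336). Both calls were unstable, since ATF4 stayed called in 8 and YAP1 in 12 of 21 alternatives. Leaving out single libraries took the edgeR adjusted p up to 0.146 for ATF4 and 0.120 for YAP1, both without control 4, and with library totals ATF4 stood at 0.17 (adjusted p = 0.598). In shunt against fetal, where 15.7% of all genes were called, 1 rose and 2 fell, with a median of -0.66, against -0.012 over all genes. These were ATF4 at 1.01 (SE 0.213, edgeR adjusted p = 0.00771), which turned to -0.11 with library totals, YAP1 at -1.13 (SE 0.187, adjusted p = 0.00274) and the glucocorticoid receptor NR3C1 at -0.75 (SE 0.165, adjusted p = 0.00873). In control against fetal edgeR called 0 of the 9, against 5.17% of all genes. Of the 9, 2 had an unadjusted p under 0.05 (18.4% of all genes did) and DESeq2 called 1, with a median of -0.15. EGR1 and FOS, immediate early factors, were highest in fetal 1 (139 and 53.9 CPM) and shunt 4 (94.8 and 57.4 CPM), neither of which was the highest of its group for NPPA or NPPB.

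Of 29 genes of load and stretch other than NPPA and NPPB, 9 were tested. ANKRD1, a stretch-responsive protein of the sarcomere and nucleus, was at 1695, 1370, 1966 and 1765 CPM in fetal, 1179, 1347, 425 and 1042 CPM in control and 391, 501, 3075 and 1591 CPM in shunt libraries. Shunt 3, the highest for both natriuretic peptides, was the highest library for ANKRD1 too after TMM scaling. On library totals fetal 1 and fetal 4 lay above it. Shunt 1 and shunt 2 were among the 3 lowest libraries for ANKRD1. In both of these, NPPA and NPPB were above every control after TMM scaling. On library totals NPPA in shunt 1 (38.9 CPM) was below control 1 (55.3 CPM). In shunt against control 8 of the 9 were above 0, and the median log2 change was 0.77, against 0.0094 over all genes. On library totals the median was 0.36, against -0.59 over all genes. Of the 9, 1 was called, where 4% of all genes were. That was TIMP1, an inhibitor of matrix proteases, which rose by 2.53 (SE 0.228, edgeR adjusted p = 0.000209). In control against fetal, where 5.17% of all genes were called, 1 of the 9 was. This was the secreted matrix protein CCN2, which fell by 3.63 (SE 0.707, edgeR adjusted p = 0.0122). The median of the 9 was -0.74, against -0.0023 over all genes. In shunt against fetal, where 15.7% of all genes were called, 2 of the 9 were. These were TIMP1 at 1.75 (SE 0.221, edgeR adjusted p = 0.000527) and the small heat shock protein CRYAB at 1.27 (SE 0.216, adjusted p = 0.00278). Neither was called with library totals (edgeR adjusted p = 0.0589 and 0.358).

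Markers of other cells moved in part with the libraries that were high in NPPA and NPPB. The summed level of the adipocyte markers FABP4, LIPE and ADIPOQ ran from 1.79 to 4.35 CPM in fetal, from 3.70 to 18.2 CPM in control and from 4.98 to 115 CPM in shunt libraries, with shunt 3 the highest. In the shunt libraries most of it was FABP4, a fatty acid binding protein that capillary endothelium also makes, at 36.2, 63.1, 113 and 3.30 CPM in shunt 1 to shunt 4. LIPE, the hormone-sensitive lipase, went the other way, at 9.56, 3.17, 3.06 and 4.64 CPM in control and 2.66, 0.528, 1.40 and 0.899 CPM in shunt libraries, and was above FABP4 in every fetal and control library. It was called as lower in shunt than in control (log2 -1.90, SE 0.496, edgeR adjusted p = 0.0487), a call kept in 10 of 21 alternatives. ADIPOQ, the gene of an adipocyte hormone, was at 0 in shunt 3 and at most 1.30 CPM elsewhere. FABP4 was called in shunt against fetal (log2 7.86, SE 1.503, edgeR adjusted p = 0.00816). The endothelial pair KDR and AQP1 summed to 107 to 118 CPM in fetal, 61.4 to 84.8 CPM in control and 52.5 to 134 CPM in shunt libraries. Shunt 3 had the lowest sum of all 12. This rested on KDR, at 36.4 CPM in shunt 3. AQP1 was at 16.1 CPM there and lower in shunt 1 (12.1 CPM) and shunt 2 (13.3 CPM). The fibroblast marker DCN was at 242 CPM in shunt 3 and at 311 to 527 CPM in the other libraries after TMM scaling. On library totals shunt 2 lay below shunt 3 for DCN. The general heart muscle genes MB, TPM1 and MYOZ2 summed to 16599.7 CPM in shunt 3, inside the group's range of 9882 to 19814 CPM. The part of such shifts in the levels of NPPA and NPPB was not tested.

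The genes whose profile over the 12 libraries was most like that of both natriuretic peptides were sought among the 475 other tested genes with a symbol, by Pearson correlation with the mean of standardised log2 CPM of NPPA and NPPB. The 5 highest were TES, a LIM protein of focal adhesions, at 0.853, ERP29, a chaperone of the endoplasmic reticulum, at 0.750, BRMS1, part of a repressor complex, at 0.715, the ribosomal gene RPL10 at 0.709 and the calcium-binding protein CIB1 at 0.686. TES was at 10.7, 10.9, 9.58 and 10.2 CPM in fetal, 5.54, 5.28, 6.70 and 4.30 CPM in control and 10.1, 10.3, 17.4 and 6.56 CPM in shunt libraries. Shunt 3 was its highest and shunt 4 its lowest shunt library. Reads of RPL10 may be shared with copies elsewhere in the genome, so its level is uncertain. The 3 most opposite were ALDH1A1, an enzyme that makes retinoic acid, at -0.845, QPCT, which cyclises the ends of peptides, at -0.811 and INHA, the alpha subunit of inhibin, at -0.781. ALDH1A1 lay at 10.8 to 57.9 CPM in fetal, 286 to 571 CPM in control and 25.2 to 167 CPM in shunt libraries, with shunt 3 its lowest shunt library and shunt 4 its highest. Over all 13063 other genes the correlation had a median of -0.016 and exceeded 0.8 for 32 genes, and TES ranked 9th. These are descriptions of likeness over 12 libraries that fall in 3 groups. The genes were picked on these same libraries, so the place of shunt 3 and shunt 4 in TES and ALDH1A1 is favoured by the choice.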

How the data were processed

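A single table of unnormalised read counts was deposited by the authors, with 12 columns headed total counts that were matched to samples by library name. Libraries were made with a stranded mRNA kit and sequenced as pairs of 75 bases, per the labels' protocols. No source used here names the aligner, counter, genome build or use of strand, so reads of overlapping genes may be shared, and no coordinates or sequences are printed. The fixed search for promoter motifs was not run, as promoter sequences were not used here.

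Genes were filtered with filterByExpr and scaled by TMM in edgeR 4.0.16 (R 4.3.3), and 1 quasi-likelihood model with 3 groups was fitted to all libraries (glmQLFit, robust). A call means an adjusted p (Benjamini-Hochberg, over 13065 genes) under 0.05, and adjusted p-values are from edgeR unless DESeq2 1.42.0 is named. Standard errors were derived from the F statistic. Log2 CPM used a prior count of 2. Exact and resampled permutation tests were run in Python 3.11.15 with NumPy 2.4.6 and SciPy 1.17.1, two-sided. Fits were tested on simulated data with known changes.

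NPPA, NPPB, the gene lists and the tests were chosen with earlier results of these data known. Up to 4 genes per list with the smallest p, and the 5 genes most like and 3 most unlike both members, were eligible for naming, and ANKRD1, EGR1, FOS, ADIPOQ and NPPC were named after their values were seen. Alternatives were other scalings, no filter, DESeq2, no robust estimation, fits of 2 groups, a replicate block and leaving out libraries. The NPPB share in percent was chosen after seeing that control 2 has 0 NPPB counts.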

Additional observations from a re-analysis of the deposited data

Results flagged for a closer look

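Of 15 groups of 4 libraries looked at for NPPA, NPPB and the NPPB share, 3 had a library whose gap to its nearest neighbour took a larger part of the group's whole range than the 95% limit of Dixon's test for 4 samples. Chance gives such a gap in about 1 of 20 groups of independent, normal values. The 15 groups reuse the same libraries and CPM values were skewed, so the 3 found cannot be read against that rate. NPPA in shunt 3, at 3589 CPM, stood away from the other shunt libraries by 0.963 of the range. NPPB in the same library, at 2520.0 CPM, stood away by 0.921 of the range. NPPA in fetal 2, at 373 CPM, stood away by 0.876 of the range. On the log2 scale none of these libraries passed the limit, and no library did for the NPPB share.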

How the results depend on the processing

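In the edgeR fits both genes kept their sign in control against fetal and in shunt against control under every alternative. Calls depended on the setting for NPPB: without robust estimation it was called at -5.90 and 7.55 in these comparisons, with DESeq2 at -5.93 and 7.57, and with only the groups compared at -5.87 in the first. DESeq2 gave NPPA no p-value because shunt 3 was marked as an outlier count. The cause of the other changes was not tested.

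Leaving out each library in turn, shunt against control ran from 2.06 to 7.12 for NPPA and from 4.63 to 8.61 for NPPB, and shunt against fetal from -1.09 to 3.49 and from -1.26 to 2.09. Differences of mean log2 CPM ran from -4.94 to -2.93 (NPPA) and -8.52 to -6.15 (NPPB) for control against fetal, from 2.64, without shunt 3, to 5.48 (NPPA) and 5.35 to 8.23 (NPPB) for shunt against control, and from -1.38 to 1.45 (NPPA) and -2.14 to 0.74 (NPPB) for shunt against fetal, where NPPA was at -0.89 with library totals. The log2 ratio of NPPA to NPPB ran from 2.67 to 3.85 and from -2.97 to -1.79, with exact p from 0.0667 to 0.1, since no split of the few libraries left can pass 0.05.

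The correlation of NPPA with the mitochondrial share was -0.147 with library totals, -0.00235 on counts outside mitochondrial genes and -0.172 without shunt 1 and shunt 2, and ran from -0.105 to 0.186 without single libraries. That of the deviations was 0.131 without shunt 1 and shunt 2 and ran from -0.705 to 0.242. For NPPB these ran from -0.144 to 0.129 and from -0.569 to 0.304, and the deviations gave -0.045 with library totals. ATF4 in shunt against fetal was at -0.11 with library totals.

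Counts of called genes moved most. For control against fetal 675 became 1913 with only the groups compared, 1672 without shunt 1 and shunt 2, 1248 with DESeq2 and 259 to 886 without single libraries. For shunt against control 522 became 4, 64, 1981 and 6 to 2169, and 61 with a replicate block. For shunt against fetal 2048 became 1073, 1314 and 957 to 2855, and 7933 with library totals, under which the median of all genes moved by -0.41, -0.59 and -1.02 in the 3 comparisons. Libraries with the same number correlated in their deviations between -0.19 and 0.15. The labels do not say that the numbers pair libraries. With 4 libraries per group these values cannot decide whether they do. With the replicate block NPPA stood at -2.91, 3.25 and 0.34 and NPPB at -5.43, 5.54 and 0.10, with no call. Depth limits NPPB in control 2 and control 3, with 0 and 14 counts.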
